A study of Mus musculus with 3 samples.

Results

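The bZIP transcription factors of the AP-1, BATF and BACH2 group were followed in RNA-seq gene counts from mouse T lymphocytes. The 10 genes, chosen by their symbols, were Jun, Junb and Jund (Jun family), Fos, Fosb, Fosl1 and Fosl2 (Fos family), Batf and Batf3, and Bach2. All 10 had a row among the 44788 gene symbols of the deposited count table. The libraries were 3 replicates of 1 group: T lymphocytes of Balb/c mice aged 6 to 8 weeks, taken from the spleen with beads against CD90.2 and kept in culture with LZ-8 over 15 h. That agent is an immunomodulatory protein of the fungus Ganoderma lucidum. Untreated cells were not analysed here, so the values are levels in treated cells and not changes caused by the treatment. Nothing in the labels ties the replicates to separate animals or cultures, so p-values speak only for these libraries, and the spread between them may be technical.

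A bZIP factor binds DNA as a dimer: a basic stretch touches the DNA and a leucine zipper joins the partners. Jun proteins pair with themselves or with Fos proteins, whereas Fos proteins need a Jun partner, and the pairs (AP-1) bind sites such as TGANTCA in genes that T cell receptor signals switch on together with NFAT. BATF and BATF3 lack the activation domain of Fos, pair with Jun proteins, and bind composite sites with IRF4 or IRF8. BACH2 pairs with small Maf proteins and acts as a repressor that restrains effector differentiation of T cells. Fos, Fosb, Jun and Junb are known as immediate early genes, whose transcripts usually appear within the first hour of a stimulus and decay fast.

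The libraries held 19041670, 12669690 and 14715992 counts (replicates 1, 2 and 3), and levels are given as counts per 1000000 counts of that total (CPM). All 10 T cell marker genes checked were above 100 CPM, with a sum of 3283 to 3453 CPM. The markers of B cells summed to 18.4 to 21.2 CPM (7 of 8 genes at 1 CPM or more), those of monocytes and macrophages to 3.95 to 5.03 CPM (1 of 10), those of neutrophils to 0.158 to 0.680 CPM (0 of 8) and those of dendritic cells to 64.8 to 67.2 CPM (2 of 8, most of it Bst2, which T cells also express). Of the defining genes of these cells, Csf1r, C1qa and Clec9a, which were picked for naming once values were known, had 0 reads in all 3 libraries. Other markers were present: Zbtb46, of dendritic cells, stood at 9.49 ± 1.22 CPM, and Cd68, of macrophages, at 4.08 ± 0.406 CPM.

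The immediate early members carry known response elements just upstream of their start sites, and the 150 bases before the RefSeq start are shown for Jun, which is known to be driven by AP-1 itself, and for Fos, which is known to be driven by CREB and serum response factors. Capitals mark TGACATCA (an AP-1 site variant), TGACG (a CREB/ATF core) and TATAAA. Sites of serum response factors were not searched for, so the Fos window is not shown to hold one. The Jun window is chr4:95052223-95052372 on the minus strand and the Fos window chr12:85473740-85473889 on the plus strand (GRCm38.p6).
Jun: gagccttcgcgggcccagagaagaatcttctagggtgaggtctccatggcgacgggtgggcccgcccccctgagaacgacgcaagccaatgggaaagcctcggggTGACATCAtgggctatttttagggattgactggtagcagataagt
Fos: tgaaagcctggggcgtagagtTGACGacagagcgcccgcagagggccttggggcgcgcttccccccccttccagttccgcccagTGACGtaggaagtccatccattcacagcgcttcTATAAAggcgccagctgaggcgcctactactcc
Both strands of the 250 bases before the start were searched in the 9 members that RefSeq's promoter table held (Fosl1 was not matched). TGACATCA was found in Jun, 45 bases before its start, and in 3.02% of 27025 promoters. TGACG was found in 4 of the 9 members, Fos (at 129 and 66 bases before the start), Fosb (60), Batf (98) and Junb (106), and in 17.9% of all promoters. TATAAA was found in Fos, 33 bases before the start, and in 13.0% of all promoters. TGANTCA and TGACGTCA were in none of the 9 windows, and in 6.87% and 1.62% of all promoters. The RefSeq start used for a window can differ from the start of the GENCODE gene. The Bach2 window (32417185 to 32417434) lies inside the GENCODE gene, which begins at 32238804, and the Batf3 and Fosl2 windows also lie inside theirs. The Jund window ends at 70697738, ahead of the GENCODE start at 70698949. Sequence before the GENCODE starts of these genes was not searched separately. These matches are letters in a window and were not tied to any binding measurement.

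Bach2 had the most reads of the 10 genes, and Junb and Jund came next. Together the members took 802, 796 and 783 CPM in replicates 1, 2 and 3. Bach2 alone made up 47.3 ± 1.25% of these reads (SD, n = 3), Junb 17.5 ± 0.808%, Jund 15.3 ± 1.21% and the 4 Fos family genes between 0.482% (Fosb) and 7.23% (Fosl2) each. Of the members, 9 reached a mean of 1 CPM and 3 a mean of 100 CPM. The exception below 1 CPM was Batf3.

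**Figure D1:**
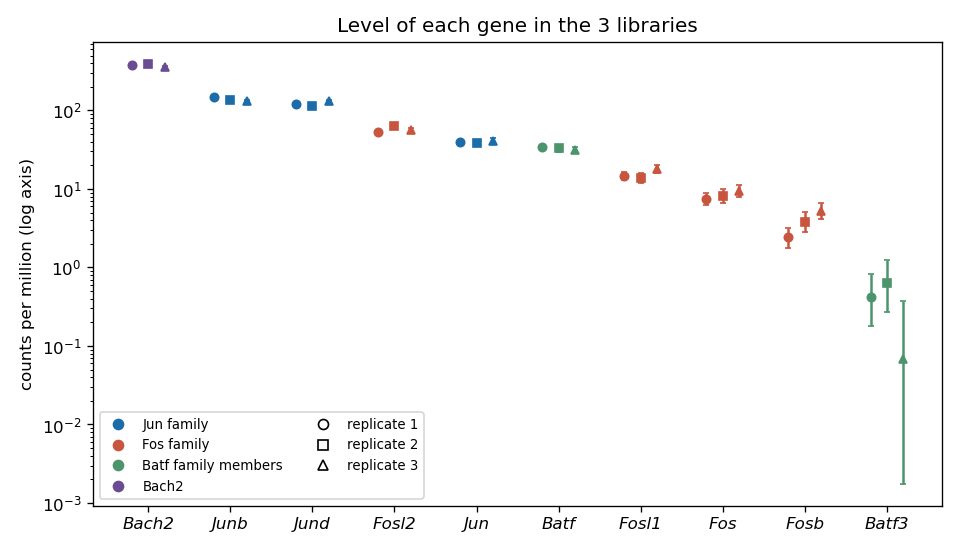
CPM of each gene (log axis) in the 3 libraries, coloured by family. Bars are exact Poisson 95% intervals of the count, which cover counting error only; Bach2 lies between 360 and 385 CPM, and the interval of Batf3 is wide because it rests on 1 to 8 reads.

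Among the Jun family, Junb and Jund were above Jun in CPM and per kilobase of exon. Junb, a Jun protein that pairs with BATF in activated T cells, stood at 147, 137 and 132 CPM in replicates 1, 2 and 3. Jund, usually described as the Jun protein of resting cells, stood at 122, 113 and 130 CPM. Jun, the founding member and the strongest activator of the family, stood at 39.6, 38.0 and 41.2 CPM. The libraries of Jun did not overlap those of Junb or Jund, whereas the ranges of Junb and Jund met at 130 and 132 CPM without overlapping. Junb made up 78.8% (exact Clopper-Pearson 95% interval 77.4 to 80.1%), 78.3% (76.5 to 80.0%) and 76.1% (74.4 to 77.8%) of the reads of Junb and Jun.

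Reads were divided by exon length to compare genes, and Junb then exceeded Jun 4.85-fold. The mean log2 ratio of Junb to Jun counts was 1.81 ± 0.12 (SD, n = 3), and 2.28 per kilobase of exon. The order of Jund and Junb depended on the length used. All 3 genes are intronless in their longest annotated transcript. Junb and Jund both lie on chromosome 8, at 84974484 to 84978718 and 70698949 to 70700616 (GRCm38), and Jun on chromosome 4 at 95049034 to 95052222. With GENCODE exon lengths (1668 bases for Jund and 2301 for Junb), Jund stood at 72.9 ± 5.13 CPM per kilobase and Junb at 60.3 ± 3.46. With the RefSeq gene spans (2878 and 1840 bases), an alternative chosen after seeing the data, Jund stood at 42.2 ± 2.97 and Junb at 75.4 ± 4.32 CPM per kilobase. Jund also overlaps the antisense gene Gm11175 over 52.6% of its exon length, and Gm11175 had no row under that symbol in the deposited counts. Junb overlaps Prdx2, a gene on the other strand at 53.9 ± 3.38 CPM, over 7.52% of its exon length. The use of strand in counting is not given in the sources used here.

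Per kilobase the Fos family ranged from the middle to the low end of expressed genes, and Fos itself, the classical immediate early gene, was under 10 CPM in every library. Fosl2 (Fra-2), a Fos protein without the strong activation domain of Fos, had 1008, 799 and 825 reads, or 52.9, 63.1 and 56.1 CPM. Fosl1 (Fra-1), which resembles it, stood at 14.7, 13.9 and 18.1 CPM. Fos stood at 7.51, 8.21 and 9.51 CPM and Fosb at 2.42, 3.79 and 5.23 CPM, from 46, 48 and 77 reads. Of these 4 genes Fosl2 had the most reads in every library and Fosb the fewest. Per kilobase of exon the order of the upper pair turned, with Fosl1 at 7.64 ± 1.10 and Fosl2 at 5.93 ± 0.536 CPM per kilobase, with 9680 bases of exon for Fosl2 and 2033 for Fosl1. Scaled by the longest transcript, Fosl2 (8.77 ± 0.793) and Fosl1 (8.34 ± 1.20) overlapped. The Fosl1 value is also uncertain because 57.2% of its exon length (chromosome 19, 5447547 to 5455946) lies opposite Ccdc85b, a gene on the other strand that had 150, 145 and 162 reads. The genes Fosl1 and Ccdc85b, summed, reached a mean of 25.6 CPM. Fos shared no 31-base word with another gene's transcripts.

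The Jun family outweighed the Fos family on both scales. In CPM the 3 Jun genes summed to 309, 288 and 303 and the 4 Fos genes to 77.5, 89.0 and 88.9 in replicates 1, 2 and 3. Per kilobase of exon the Jun genes summed to 146 ± 5.50 and the Fos genes to 17.8 ± 1.68 (SD, n = 3), and the libraries of the families did not overlap.

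Batf was present and Batf3 was near the limit of detection. Batf, the BATF protein of T cells that opens chromatin with IRF4, stood at 33.8, 32.8 and 31.5 CPM (643, 416 and 463 reads). It lies on chromosome 12 at 85686669 to 85709087, and Fos on the same chromosome at 85473890 to 85477273. Batf3, best known from cross-presenting dendritic cells and also a BATF protein of some T cells, had 8, 8 and 1 reads, or 0.420, 0.631 and 0.0680 CPM. Batf made up 98.8%, 98.1% and 99.8% of the reads of the pair, with exact lower 95% limits of 97.6%, 96.3% and 98.8%. The log2 ratio was 6.71 ± 1.39 (SD, n = 3). The level of Batf3 in replicate 3 lay below the 0.204 CPM that a count of 0 allows in that library. In bulk samples such as these, fewer cells expressing a gene and less RNA per cell cannot be told apart.

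Bach2 (chromosome 4, 32238804 to 32586108) stood at 382, 385 and 360 CPM, from 7269, 4882 and 5297 reads. Only part of this rank is kept per length: Bach2 has 9940 bases of exon, and at 37.8 ± 1.38 CPM per kilobase it followed Jund and Junb. It remained above Batf (23.2 ± 0.825 CPM per kilobase) in each of the 3 libraries, 1.62-fold per kilobase and 11.5-fold in reads. Its paralogue Bach1, which represses haem and iron genes, was 8.34-fold lower per kilobase, and Bach2 made up 92.7 to 93.7% of the reads of the pair. Bach2 is also a gene of B cells. The 8 B cell markers together summed to at most 21.2 CPM, and the part of B cells in the Bach2 level was not tested. The antisense gene Bach2os, which covers 5.40% of the Bach2 exons, had 0 reads in all 3 libraries. Of the 9945 31-base words of Bach2, 633 (6.37%) were shared with transcripts of other genes.

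Ordered by level per kilobase with GENCODE lengths, the members ran Jund, Junb, Bach2, Batf, Jun, Fosl1, Fosl2, Fos, Fosb and Batf3. Of the 9 neighbouring pairs, 8 were apart, meaning that the lowest library of the upper gene exceeded the highest of the lower one. The pair that overlapped was Fosb (0.611 ± 0.226) and Batf3 (0.234 ± 0.178 CPM per kilobase). The narrow gaps were Jund to Junb (67.7 against 64.0 CPM per kilobase) and Fosl1 to Fosl2 (6.83 against 6.51). Each of 10 count ratios within the libraries gave p = 0.25, raw and adjusted, in an exact two-sided sign-flip permutation test, the smallest that 3 libraries allow.

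**Figure D2:**
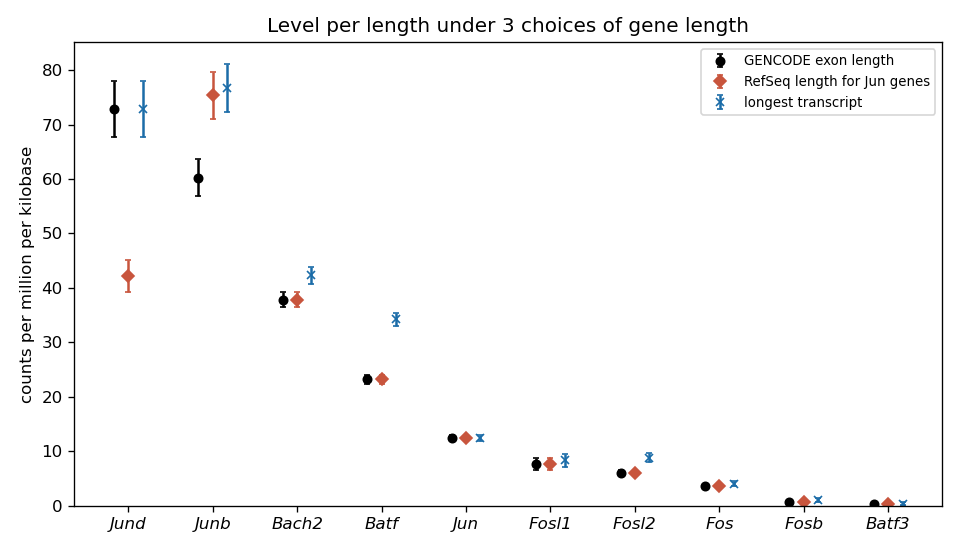
Mean level per kilobase with its SD over the 3 libraries (n = 3), under 3 choices of gene length. Jund and Junb change places with the length, whereas Bach2, Batf and Jun follow them in that order under all 3 choices.

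Against the transcriptome the members spread from high to low. Of the 12323 genes of at least 1 CPM with a known exon length, 93.7% lay below Jund per kilobase, 92.0% below Junb, 86.2% below Bach2 and 77.4% below Batf. For Fosl1 this share was 47.6%, for Fosl2 41.1%, for Fos 29.3% and for Fosb 6.04%. By CPM without length scaling Fosl2 lay above 68.6% of genes. The median of the 10 members was 10.04 CPM per kilobase, beside 8.36 for all those genes. The members include Batf3, which lies below the 1 CPM that those genes had to reach.

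The members were then placed among 53 listed bZIP genes, of which 38 reached a mean of 1 CPM. Atf4, a factor of the amino acid and stress response, headed the order at 210 ± 1.29 CPM per kilobase, and Jund, Junb, Bach2 and Batf had ranks 2, 3, 7 and 9 with GENCODE lengths. With the RefSeq spans for the Jun genes, Junb had rank 2 and Jund rank 5. Close to Junb and Bach2 in level were Atf6b and Xbp1, factors of the unfolded protein response, at 54.3 ± 4.71 and 39.8 ± 1.31 CPM per kilobase. Below Bach2 lay Mafg, a small Maf protein able to pair with it, at 30.1 ± 0.631 CPM per kilobase. Ddit3 (20.7 ± 1.54) followed Batf. Jun lay between Nfil3 (13.1 ± 0.798) and Crem (9.48 ± 0.386), Fosl1 and Fosl2 between Creb1 (7.96 ± 0.480) and Atf6 (5.33 ± 0.146), and Fos between Maff (3.86 ± 0.441) and Crebl2 (3.35 ± 0.0714 CPM per kilobase). Likeness here is of level alone, over 3 replicates of 1 group.

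**Figure D3:**
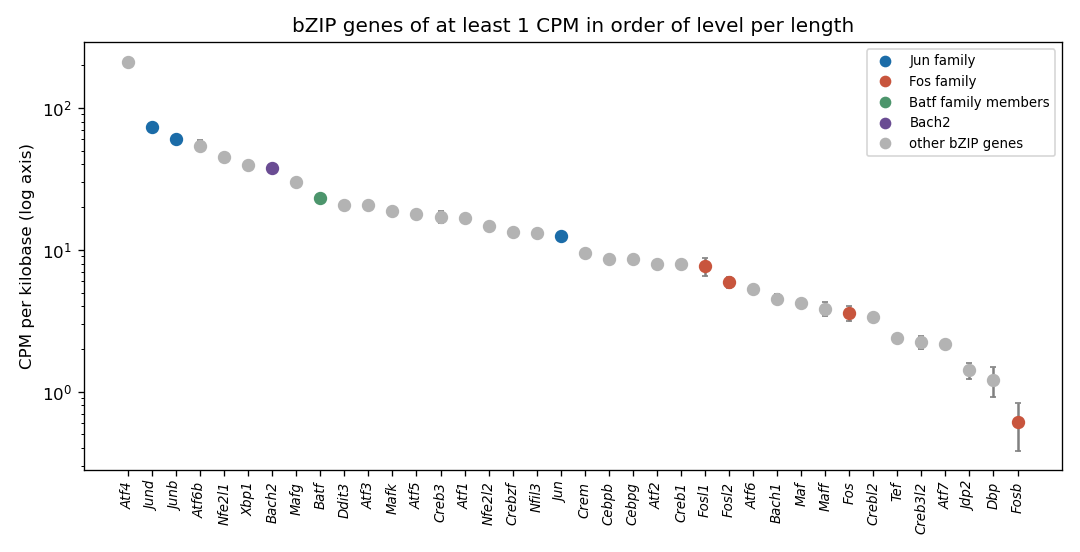
Mean CPM per kilobase of exon (log axis) with the SD over the 3 libraries (n = 3) for the 38 bZIP genes of at least 1 CPM, in order of level. With the GENCODE lengths drawn, Jund and Junb follow Atf4 (Jund has rank 5 with its RefSeq span), the Fos family lies between rank 25 and the end, and Fosb is last; Batf3 is not drawn because its mean was below 1 CPM.

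Most of the listed dimer partners were detected. Of 9 other AP-1 genes and partners, 8 reached 1 CPM and 1 reached 100 CPM. They were led in reads by the small Maf genes Mafg (169 ± 3.54 CPM) and Mafk (72.9 ± 1.09 CPM), by Atf2 (65.2 ± 3.52 CPM) and by the stress-induced Atf3 (44.3 ± 0.412 CPM). The median of the 9 was 4.53 CPM per kilobase, beside 8.36 for all genes of at least 1 CPM. The 9 include Batf2, at 0.080 CPM, which that filter would leave out, so the 2 medians are not fully alike. Without length scaling it was 28.0 CPM, beside 26.9. Irf4, the partner of BATF, was at 492 CPM per kilobase, 21.1-fold above Batf per kilobase, and Irf8 at 24.3 CPM per kilobase, close to Batf. Batf made up 1.37%, 1.30% and 1.35% of the reads of Batf and Irf4 in replicates 1, 2 and 3.

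The kinases and factors that act upstream of AP-1 were all measured. All 12 listed MAP kinase pathway genes were above 1 CPM and 6 above 100 CPM, among them Map2k2 (MEK2) at 149 ± 11.7 CPM and Map2k7 (MKK7, a JNK kinase) at 146 ± 2.83 CPM. All 6 factors known to act on the Fos and Jun promoters were above 1 CPM, with Mef2d at 233 ± 11.2 CPM, the ternary complex factor Elk4 at 196 ± 11.9 CPM, Srf at 108 ± 1.49 CPM and Mef2a at 67.3 ± 2.19 CPM. The median gene of the kinase list was at 23.4 and that of the promoter factor list at 19.0 CPM per kilobase. Of 8 other early response and stress genes, 5 lay above Fos (3.58) in CPM per kilobase, among them Ier2 (65.1) and Egr1 (22.3). The other 3, Ier3, Hspa1b and Hspa1a, named after their values were seen, lay below it at 2.18, 1.14 and 0.643 CPM per kilobase.

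Downstream, genes linked to AP-1 in T cells covered a wide range. Of the 12 listed, 11 were above 1 CPM and 2 above 100 CPM, with Il2ra (IL-2 receptor alpha) at 816 ± 19.2 CPM, Cd69 at 380 ± 16.8 CPM, Tnf at 40.3 ± 2.73 CPM and Cd40lg at 26.5 ± 1.71 CPM. The 5 genes listed as repressed by BACH2 were all above 1 CPM and all below 100 CPM. They were led by Gata3 (32.7 ± 0.627 CPM), Hmox1 (27.5 ± 2.95 CPM), Rora (25.8 ± 0.957 CPM) and Prdm1 (Blimp-1, 16.7 ± 1.21 CPM). Bach2 exceeded Prdm1 12.6-fold per kilobase, and made up 95.5%, 96.1% and 95.6% of the reads of the pair. The median of the 5 was 2.997 CPM per kilobase, beside 8.36 for all genes of at least 1 CPM. Without length scaling it was 25.8 CPM, beside 26.9.

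Between the replicates Fosb differed 2.17-fold and the other members tested by 1.31-fold or less, several of them by more than counting error. The edgeR likelihood-ratio test, run at a dispersion of 0, compares these libraries, not conditions, and 13.7% of the 13500 genes tested varied at an adjusted p under 0.05. Of the 9 members tested (Batf3 did not pass the filter of 1 CPM in at least 2 libraries), 5 varied: Fosb, Fosl2, Jund, Junb and Bach2. The test calls abundant genes more readily. Of genes between 100 and 1000 CPM 32.5% varied, beside 3 of 3 members there (Junb, Jund, Bach2). Between 10 and 100 CPM the share was 11.6%, beside 1 of 4 members (Fosl2), and between 1 and 10 CPM it was 4.65%, beside 1 of 2 members (Fosb). Over the 9 members the highest library exceeded the lowest by a median of 0.21 log2 units, and over all genes tested by 0.17.

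Fosb had the widest range, 1.12 log2 units or 2.17-fold, with replicate 3 highest and replicate 1 lowest (edgeR likelihood-ratio test, adjusted p = 0.00201). The call rested on replicates 1 and 3 together: the adjusted p became 0.289 without replicate 1 and 0.203 without replicate 3, and stayed past the threshold without replicate 2 (0.000727). Fos lay in the same order (7.51, 8.21 and 9.51 CPM) and did not pass (range 0.35, adjusted p = 0.311). The neutrophil markers, at 0.158, 0.237 and 0.680 CPM in all, and the mitochondrial share of counts, at 2.14%, 2.21% and 2.39%, also lay in that order, as did the summed T cell markers, at 3283, 3351 and 3453 CPM. The share of Rn18s-rs5, a sequence related to ribosomal RNA, ran the other way, at 1.09%, 0.969% and 0.886%. Other marker sums did not follow the order. They were 21.2, 18.4 and 19.0 CPM for B cells and 4.62, 3.95 and 5.03 CPM for monocytes and macrophages. For dendritic cells the sum was 66.4, 64.8 and 67.2 CPM. Of the single T cell markers, only Cd4 and Cd5 rose from replicate 1 to 2 to 3. The neutrophil sum rests on a handful of reads, and the part of these measures in the Fosb difference was not tested. None of the 8 early stress genes varied, and their summed level was 361, 372 and 366 CPM. At an unadjusted p under 0.05 in the same edgeR test there was 1, and the share of all genes at that threshold is not given here. Among the 8, only Ier3 lay in the order of Fosb, at 1.79, 2.29 and 3.33 CPM from 34, 29 and 49 reads. Its range was 0.90 log2 units and it did not pass (edgeR likelihood-ratio test, adjusted p = 0.0873).

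The other calls were small. Fosl2 was highest in replicate 2 (range 0.26 log2 units, adjusted p = 0.0116), and only the pair of replicates 1 and 2 differed when libraries were compared 2 at a time (adjusted p = 0.00721, in a fit where 5.61% of genes varied). Jund was lowest in replicate 2 (range 0.21, adjusted p = 0.00253) and differed between replicates 2 and 3 (adjusted p = 0.00104, 8.48% of genes varied). Junb was highest in replicate 1 (range 0.15, adjusted p = 0.0126) and differed between replicates 1 and 3 (adjusted p = 0.00666, 9.03% of genes varied). Bach2 was lowest in replicate 3 (range 0.09, adjusted p = 0.0224) and replicate 3 differed from replicate 1 (adjusted p = 0.0415) and from replicate 2 (adjusted p = 0.0247). Jun (range 0.12, adjusted p = 0.579), Batf (0.09, 0.748) and Fosl1 (0.39, 0.0575) did not pass in the same edgeR test.

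**Figure D4:**
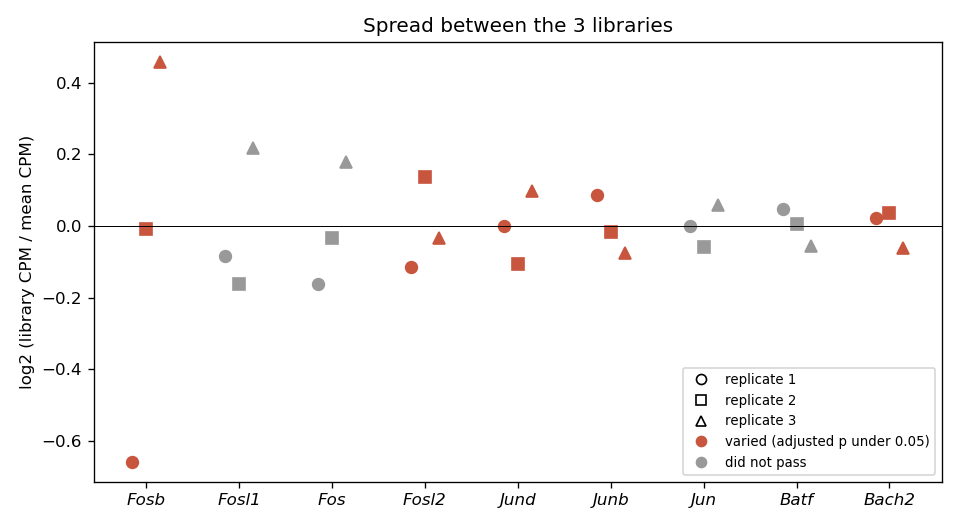
log2 of each library's CPM over the mean of the 3 libraries, for the 9 members tested. Genes that varied at an adjusted p under 0.05 are red; Fosb spreads over more than 1 log2 unit, while Bach2, called on many reads, spreads over about 0.09.

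Around the members, 0 of 8 tested AP-1 and Maf partners varied (edgeR likelihood-ratio test), and 1 of the 2 IRF partners did. That gene was Irf4, at 2438, 2494 and 2298 CPM (same test, adjusted p = 8.7e-21). Its range was only 0.11 log2 units, and its level lies above the level ranges given above. Of 21 other bZIP genes 3 varied (Atf6b, Creb1 and Creb3, the last named after its value was seen). So did 4 of 12 MAP kinase pathway genes, 3 of 6 promoter factors, 2 of 11 AP-1 linked genes and 0 of 5 genes repressed by BACH2. Of the T cell markers 7 of 10 varied. Over all genes tested the share was 13.7%, and it was higher among abundant genes as given above: 6 of the 12 kinase pathway genes, 3 of the 6 promoter factors and all 10 T cell markers were at 100 CPM or more. At an unadjusted p under 0.05 the same test gave 0 of the 8 AP-1 and Maf partners and 1 of the 5 genes repressed by BACH2. The share of all genes at that unadjusted threshold is not given here, so these counts cannot be called low or high.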

How the data were processed

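Raw read counts per gene symbol, deposited by the authors as 1 table, were used for the 3 libraries of the 1 group (T lymphocytes with LZ-8 for 15 h). Per the submitters' processing notes the genome build was mm10. Not given in the sources used here are the aligner, counter, annotation, strand setting and handling of multi-mapping reads, so genes that overlap or share sequence may have gained or lost reads. Libraries were made with an Ion Proton RNA-seq kit from total RNA, per the labels' protocols.

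CPM was computed from the column totals. Exon lengths (union of all exons), overlaps and shared 31-base words were taken from GENCODE vM21 (GRCm38, which is mm10), and promoter windows and gene spans from RefSeq (GRCm38.p6). Only 1 group exists, so no contrast was fitted. A gene entered the test of library differences with at least 1 CPM in 2 or more libraries, in edgeR 4.0.16 (TMM factors 0.996 to 1.003, a likelihood-ratio test on glmFit at dispersion 0, adjusted by Benjamini-Hochberg over all genes). Tested on simulated Poisson counts of 13521 genes, it found 75 of 100 genes with a 1.5-fold change in a library, 95 of 100 with a 2-fold change, and 9 unchanged genes. The simulated counts held only the counting error that the test assumes, so these numbers do not describe libraries with further spread. Count ratios had 0.5 added to each count. Intervals are exact 95% intervals and cover counting error only, since reads are not independent molecules, and a count of 0 allows 3 counts, or 0.158, 0.237 and 0.204 CPM in replicates 1, 2 and 3.

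The members, gene lists and tests were chosen with earlier results of these data known. Named genes were the members, the 4 genes with the most reads of each list, the genes of the ratios and the neighbours of the members in the bZIP order; some of these are not reported here. In the table Adgre1 was listed under an older symbol. Other settings tried were size factors of DESeq2 1.42.0, totals without scaling, further filters, lengths and pseudocounts, and omission of each library. The software was Python 3.11.15 (pandas 2.3.3, numpy 2.4.6, matplotlib 3.10.9, scipy 1.17.1) and R 4.3.3.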

Additional observations from a re-analysis of the deposited data

How the results depend on the processing

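Scaled by exon length, 8 of the 10 count ratios had an unchanged sign, while Jund to Junb turned to 0.27 and Fosl2 to Fosl1 to -0.36 by that division alone. All 10 signs were the same when 0.1 was the value added or when any replicate was omitted. The summed level of the 10 members moved to 820 CPM without mitochondrial genes and Rn18s-rs5 in the total, which is a smaller total by construction, and stayed within its SD with TMM or DESeq2 size factors. The number of neighbours apart in the order was 7 to 9 under all settings tried, against 8. The median member was at 36.2 CPM without length scaling, against 10.04 CPM per kilobase. The count of members that varied between libraries was 5 with DESeq2 size factors, unscaled totals or no filter, and 4 with the filter of 5 CPM, where Fosb was not tested. With 2 libraries in place of 3 it was 1 to 3 members, and 742 to 1193 genes in all against 1847. No paired analysis was possible because there is 1 group. Depth limits Batf3 (1 to 8 reads) and Fosb (46 to 77 reads).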

Other observations

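Jund and Atf6b lay in the same order across the libraries: Jund at 122, 113 and 130 CPM and Atf6b at 152, 136 and 161 CPM in replicates 1, 2 and 3. Both varied in edgeR's likelihood-ratio test (adjusted p = 0.00253 and 4.5e-06). The order was not particular to this pair. Jun (39.6, 38.0 and 41.2 CPM) and Fosl1 (14.7, 13.9 and 18.1 CPM) shared it, and neither passed in that test. The pair was noticed after the values were seen, and with 3 libraries no relation was tested.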
